A study of Mus musculus with 20 samples.

Results

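The 10 genes described here carry out or report the response to misfolded protein in the endoplasmic reticulum (ER) and to a shortage of amino acids: Hspa5, Ddit3, Atf3, Atf4, Xbp1, Herpud1, Trib3, Asns, Dnajb9 and Hsp90b1. They were chosen by name and not by a filter on their values, but with earlier results of these data known. On the array 14 of the 41174 probes read them, out of 28786 gene symbols. Each gene is given by its brightest probe, the one with the highest mean over the 20 arrays. RNA came from liver and from white adipose tissue (WAT) of male C57BL/6 mice that were 7 months old and had eaten a high fat diet (HFD) with 35% fat for 21 weeks. WT(HFD) mice carried Cd44, which encodes a membrane receptor for hyaluronan, and CD44KO(HFD) mice lacked it in every cell after backcrossing onto C57BL/6J. There were 4 groups of 5 arrays, 1 for each genotype in each tissue, and no mice on a normal diet were on the arrays. The fat depot was not named beyond WAT, and each array read RNA of whole tissue with all of its cell types. The comparison asked whether loss of CD44 on this diet went with a different level of these stress genes.

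When unfolded protein builds up in the ER, 3 sensors in its membrane respond: the kinase PERK (Eif2ak3), the kinase and RNase IRE1 (Ern1) and the transcription factor ATF6. PERK and its relatives, among them the amino acid sensor GCN2 (Eif2ak4), phosphorylate the translation factor eIF2alpha, which lowers protein synthesis in general but raises translation of Atf4, and ATF4 in turn switches on Atf3, Ddit3, Trib3 and Asns. IRE1 splices the mRNA of Xbp1, and ATF6 and spliced XBP1 induce chaperones such as Hspa5, Hsp90b1 and Dnajb9 and degradation factors such as Herpud1. In liver and adipose tissue these pathways are known to respond to overfeeding and to lipid load.

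The response elements through which these factors act can be read in the promoters of 5 members, which are printed to show how the chaperone and amino acid branches differ in their regulatory DNA. All 10 members matched the RefSeq promoter table (build GRCm38.p6), and the 250 bases before the transcription start are given 5' to 3' on the gene's own strand. Capitals mark the ER stress element (ERSE, CCAAT, then 9 bases, then CCACG) in Hspa5 and Hsp90b1, its second form (ERSE-II, ATTGG, 1 base, CCACG) in Herpud1 and the C/EBP-ATF composite element (CARE, TGATGNAA) in Herpud1, Atf3 and Asns, each searched on both strands. Hspa5 lies at chr2:34771840-34772089 (+), Hsp90b1 at chr10:86705445-86705694 (-), Herpud1 at chr8:94386179-94386428 (+), Atf3 at chr1:191183334-191183583 (-) and Asns at chr6:7693210-7693459 (-).
Hspa5: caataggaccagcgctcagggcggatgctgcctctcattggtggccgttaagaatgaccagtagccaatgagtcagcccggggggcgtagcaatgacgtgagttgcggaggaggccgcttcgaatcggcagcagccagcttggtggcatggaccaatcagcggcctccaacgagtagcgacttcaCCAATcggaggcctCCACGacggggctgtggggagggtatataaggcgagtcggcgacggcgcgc
Hsp90b1: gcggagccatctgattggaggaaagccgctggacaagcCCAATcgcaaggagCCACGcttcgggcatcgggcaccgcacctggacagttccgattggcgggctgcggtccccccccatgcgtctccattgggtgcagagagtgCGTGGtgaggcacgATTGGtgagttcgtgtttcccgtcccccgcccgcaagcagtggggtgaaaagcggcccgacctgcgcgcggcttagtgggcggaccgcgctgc
Herpud1: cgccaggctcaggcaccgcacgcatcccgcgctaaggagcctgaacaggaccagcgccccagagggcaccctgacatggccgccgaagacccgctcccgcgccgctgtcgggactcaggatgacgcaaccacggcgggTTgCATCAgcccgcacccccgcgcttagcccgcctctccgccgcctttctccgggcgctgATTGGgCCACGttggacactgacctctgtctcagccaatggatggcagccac
Atf3: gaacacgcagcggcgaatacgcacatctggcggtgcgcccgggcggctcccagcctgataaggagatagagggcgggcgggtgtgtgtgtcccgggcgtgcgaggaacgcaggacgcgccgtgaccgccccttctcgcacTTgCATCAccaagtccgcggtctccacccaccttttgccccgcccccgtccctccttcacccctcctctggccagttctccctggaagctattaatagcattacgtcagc
Asns: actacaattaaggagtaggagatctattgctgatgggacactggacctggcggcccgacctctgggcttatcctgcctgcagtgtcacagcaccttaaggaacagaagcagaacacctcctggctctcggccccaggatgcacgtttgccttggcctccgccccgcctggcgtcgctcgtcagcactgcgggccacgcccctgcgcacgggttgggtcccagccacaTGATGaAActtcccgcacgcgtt

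In Hspa5 the ERSE ran from base -65 to -47, counted back from the start. Hsp90b1 held 2 such elements, from -212 to -194 on the gene's strand and from -107 to -89 on the opposite one. Among all 32851 promoter windows of the table, each 300 bases long with 50 of them after the start, 39 windows or 0.119% held an ERSE. The ERSE-II of Herpud1 lay at -52 to -42, and 12 windows or 0.0365% held one. The CARE was found in 4 members, at -110 to -103 in Atf3, -112 to -105 in Herpud1, -23 to -16 in Asns and, just inside the transcript, at bases 15 to 22 of Trib3, and in 1304 windows or 3.97%. The unfolded protein response element TGACGTGG was in 222 windows or 0.676% and in 0 members, and no element of the 4 kinds was found in the windows of Ddit3, Atf4, Xbp1 or Dnajb9. No match overlapped another in a member. These letters are a description of the windows and were not tested against the expression data.

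**Figure D1:**
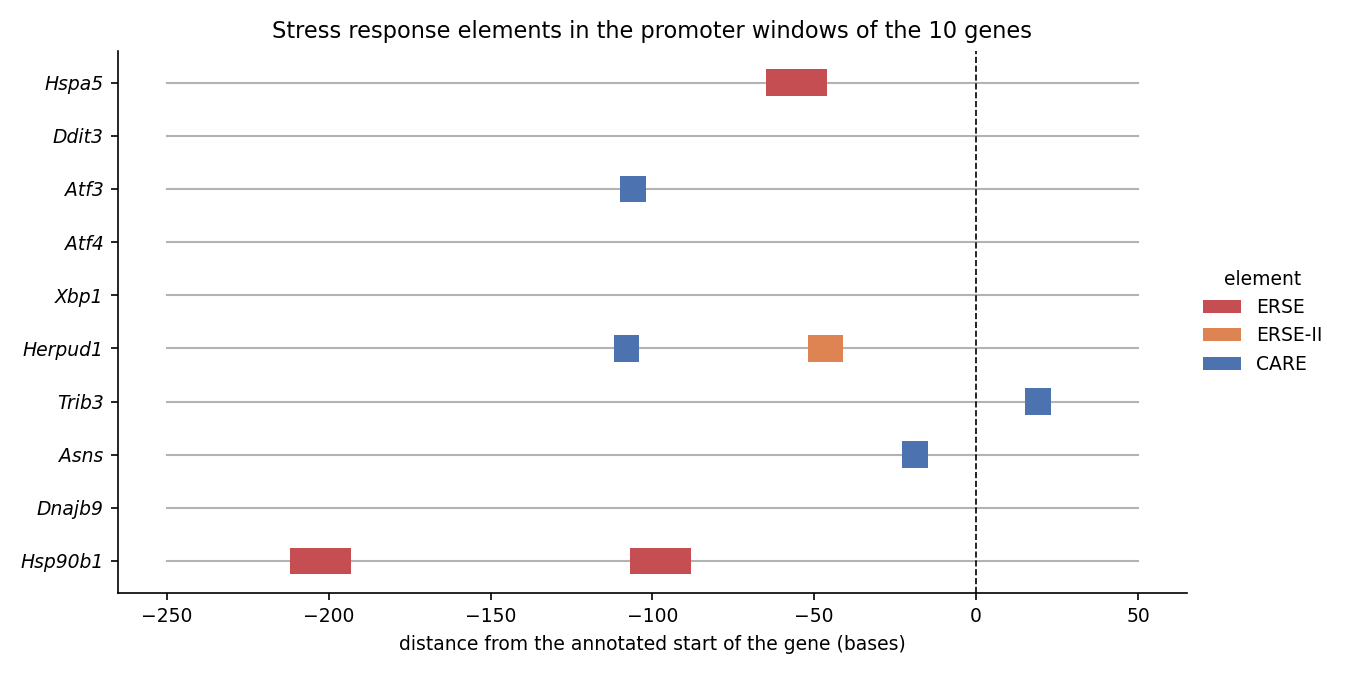
Positions of the 4 searched elements in the promoter windows of the 10 members, as distance in bases from the transcription start. Hspa5, Hsp90b1 and Herpud1 hold ER stress elements, and Atf3, Herpud1, Trib3 and Asns hold the C/EBP-ATF composite element.

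Levels are given as log2 signal relative to the 75th percentile of the same array, so that 0 is the signal of that percentile. The 75th percentile ranged from 432.7 to 574.6 signal units in liver and from 1540.9 to 2791.9 in WAT. Between 57.4% and 61.9% of probes were well above background in liver and between 63.2% and 69.5% in WAT, except for WT(HFD) WAT replicate 1 with 89.5%, which stood apart from the other arrays. Cd44 checked the genotype labels: its brightest probe read 0.48 ± 0.28 (SD, n = 5) in WT(HFD) liver and -3.74 ± 0.41 in CD44KO(HFD) liver, 4.07 ± 0.37 in WT(HFD) WAT and -0.51 ± 0.13 in CD44KO(HFD) WAT. No CD44KO(HFD) array overlapped a WT(HFD) array of its tissue at this probe. Liver and WAT arrays lay on different slides, so that tissue and slide cannot be told apart, whereas every liver slide and WAT slides A and B held both genotypes. WAT slide C held CD44KO(HFD) arrays alone. The 5 arrays of a group are labelled as separate samples, and p-values measure the spread between them.

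In CD44KO(HFD) liver Atf3, the stress-induced transcriptional repressor, fell and Xbp1, the transcription factor of the IRE1 branch, rose, while the other 8 members did not pass the test. In WAT 0 of 10 members passed. The test was limma's moderated test with Benjamini-Hochberg adjustment over all probes measured in the tissue and a threshold of 0.05. All 10 members were measured well above background on all arrays and were tested in both tissues. Over all 24688 probes tested in liver, 13.6% were called, 5.75% as lower and 7.85% as higher, so that 2 calls among 10 members were close to the share over all probes. Of the called liver probes 57.7% were higher in CD44KO(HFD), but this split was 33.7% after normexp background correction. In liver 8 of the 10 members had a higher estimate in CD44KO(HFD), with a median log2 fold change of 0.18 against 0.08 over all probes, of which 61.3% had a higher estimate. Of the members 5 had an unadjusted p under 0.05, as had 32.2% of all probes. None of the 10 was without overlap between the genotypes, against 11.7% of all probes.

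**Figure D2:**
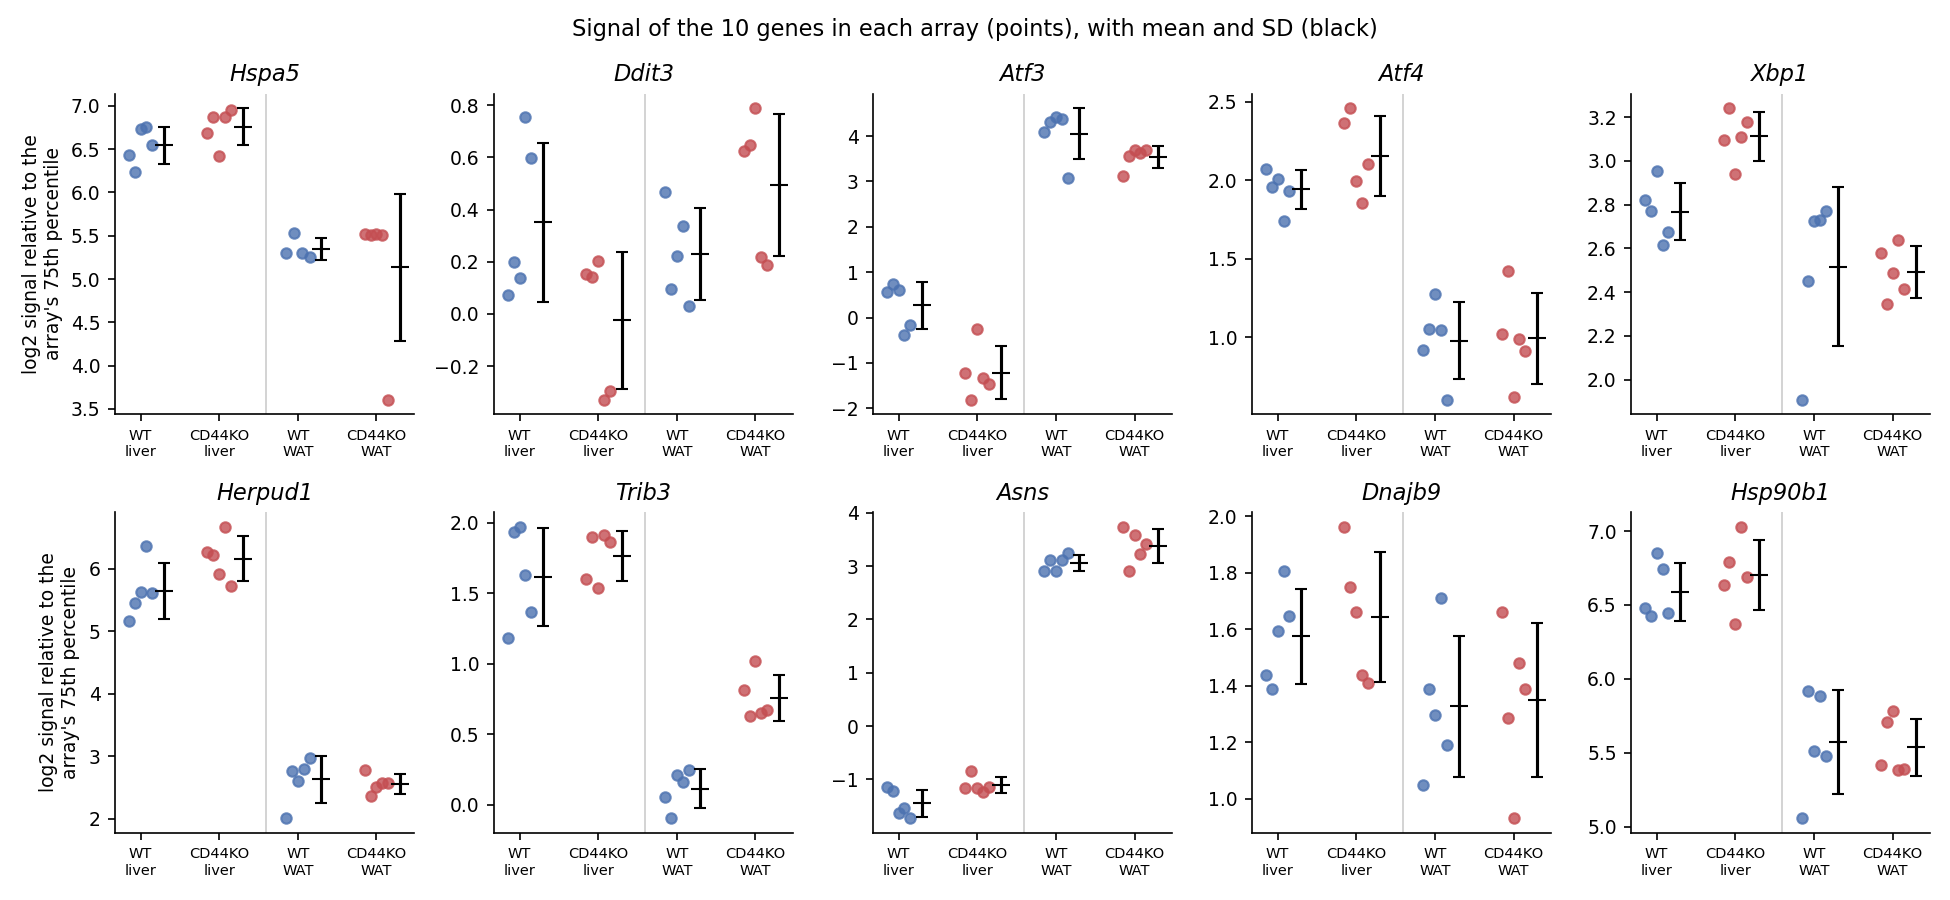
Log2 signal relative to the array's 75th percentile for each of the 10 members on each array, by tissue and genotype, with a point for an array and black bars for the group mean and SD. Atf3 is lower on all 5 CD44KO(HFD) liver arrays than the WT(HFD) mean of 0.27, and Trib3 in WAT is the panel without overlap.

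Atf3, induced within minutes to hours by many stresses, had the largest difference of the members in liver (probe at chr1:190724174-190724233, build mm7). WT(HFD) replicates 1 to 5 read 0.56, 0.73, 0.62, -0.39 and -0.17. CD44KO(HFD) replicates 1 to 5 read -1.23, -1.81, -0.26, -1.34 and -1.47. All 5 CD44KO(HFD) arrays lay below the WT(HFD) mean, and the groups overlapped at 1 place, where CD44KO(HFD) replicate 3 was above WT(HFD) replicate 4. The mean went from 0.27 ± 0.51 to -1.22 ± 0.58 (SD, n = 5 each), a log2 fold change of -1.49 with a standard error (SE) of 0.31, or 2.81-fold lower in CD44KO(HFD). The limma adjusted p was 0.0188 and the two-sided exact permutation p was 0.016, where 0.0079 is the smallest that 252 relabellings can give. Within the 3 liver slides the log2 fold change was -1.06, -1.75 and -1.85. Without WT(HFD) liver replicate 2 the call was lost at an adjusted p of 0.0501 (limma), and without CD44KO(HFD) liver replicate 3 the log2 fold change was -1.73 with an adjusted p of 0.00451.

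Xbp1 moved less but with a narrow spread (probe at chr11:5476970-5477029, build mm7). WT(HFD) liver replicates 1 to 5 read 2.82, 2.77, 2.96, 2.62 and 2.68. CD44KO(HFD) liver replicates 1 to 5 read 3.10, 3.24, 2.94, 3.11 and 3.18. Every CD44KO(HFD) array was above the WT(HFD) mean, and only CD44KO(HFD) replicate 3 lay just under the highest WT(HFD) array. Xbp1 rose by 0.34 on the log2 scale (SE 0.09), or 1.27-fold, with a limma adjusted p of 0.0304 and an exact permutation p of 0.016. The slide values were 0.31, 0.48 and 0.14. The call did not hold in every setting: the limma adjusted p was 0.395 after normexp background correction and 0.0756 after quantile normalization, and 3 of the 10 fits with 1 array left out passed the threshold. Whether the probe reads spliced and unspliced Xbp1 mRNA alike was not looked up.

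Of the genes that depend on eIF2alpha kinases, Atf4 mRNA ranged from 1.74 to 2.07 in WT(HFD) liver and from 1.85 to 2.46 in CD44KO(HFD) liver. The difference of 0.21 on the log2 scale (SE 0.12) did not pass the limma test (adjusted p = 0.263). Ddit3, which encodes the pro-apoptotic factor CHOP, read 0.07, 0.20, 0.14, 0.76 and 0.60 on WT(HFD) liver arrays 1 to 5. On CD44KO(HFD) liver arrays 1 to 5 it read 0.15, 0.14, 0.20, -0.33 and -0.29. The lowest values were CD44KO(HFD) replicates 4 and 5, the highest WT(HFD) replicates 4 and 5, and the other arrays of both genotypes lay together between them. The Ddit3 log2 fold change was -0.38 (SE 0.17), with a limma adjusted p of 0.151 and an exact permutation p of 0.13.

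Trib3, a pseudokinase that binds ATF4 and AKT, ranged from 1.18 to 1.97 in WT(HFD) liver and from 1.54 to 1.91 in CD44KO(HFD) liver. The difference on the log2 scale was 0.15 (SE 0.16, limma adjusted p = 0.567), and its other probe gave -0.18 (limma adjusted p = 0.525), so that the probes differed in sign. Asns, the asparagine synthetase gene, read -1.15, -1.21, -1.62, -1.53 and -1.73 in WT(HFD) liver. In CD44KO(HFD) liver Asns read -1.16, -0.83, -1.15, -1.23 and -1.14. All 5 CD44KO(HFD) arrays were above the WT(HFD) mean, and WT(HFD) replicates 1 and 2 lay among them. The Asns log2 fold change of 0.34 (SE 0.13), with values of 0.29, 0.34 and 0.46 on the 3 slides, did not pass the limma test (adjusted p = 0.0993, exact permutation p = 0.063).

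None of the ER chaperone genes passed the test. Hspa5, which encodes the chaperone BiP that binds the 3 sensors at rest, ranged from 6.24 to 6.76 in WT(HFD) liver and from 6.42 to 6.96 in CD44KO(HFD) liver, which made a difference of 0.22 on the log2 scale (SE 0.13, limma adjusted p = 0.283). Hsp90b1, the gene of the ER chaperone GRP94, had a log2 fold change of 0.12 (SE 0.13, limma adjusted p = 0.586) by its brightest probe and of -0.19 (limma adjusted p = 0.335) by the other. Dnajb9, which encodes the BiP cochaperone ERdj4, had log2 fold changes of 0.07, 0.09 and 0.09 by its 3 probes, with a limma adjusted p of 0.745 for the brightest.

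Herpud1, a membrane protein of the ER degradation machinery, read 5.16, 5.45, 5.62, 6.37 and 5.61 on WT(HFD) liver arrays 1 to 5. It read 6.26, 6.22, 5.92, 6.67 and 5.72 on CD44KO(HFD) liver arrays 1 to 5. Each CD44KO(HFD) array was above the WT(HFD) mean of 5.64, and WT(HFD) replicate 4 lay among the highest arrays of both groups. The log2 fold change of 0.52 (SE 0.23) was the largest positive value of the members in liver and did not pass (limma adjusted p = 0.155, exact permutation p = 0.079). Of the 10 fits that each dropped an array 1 called it, the fit lacking WT(HFD) replicate 4 (limma adjusted p = 0.0372).

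**Figure D3:**
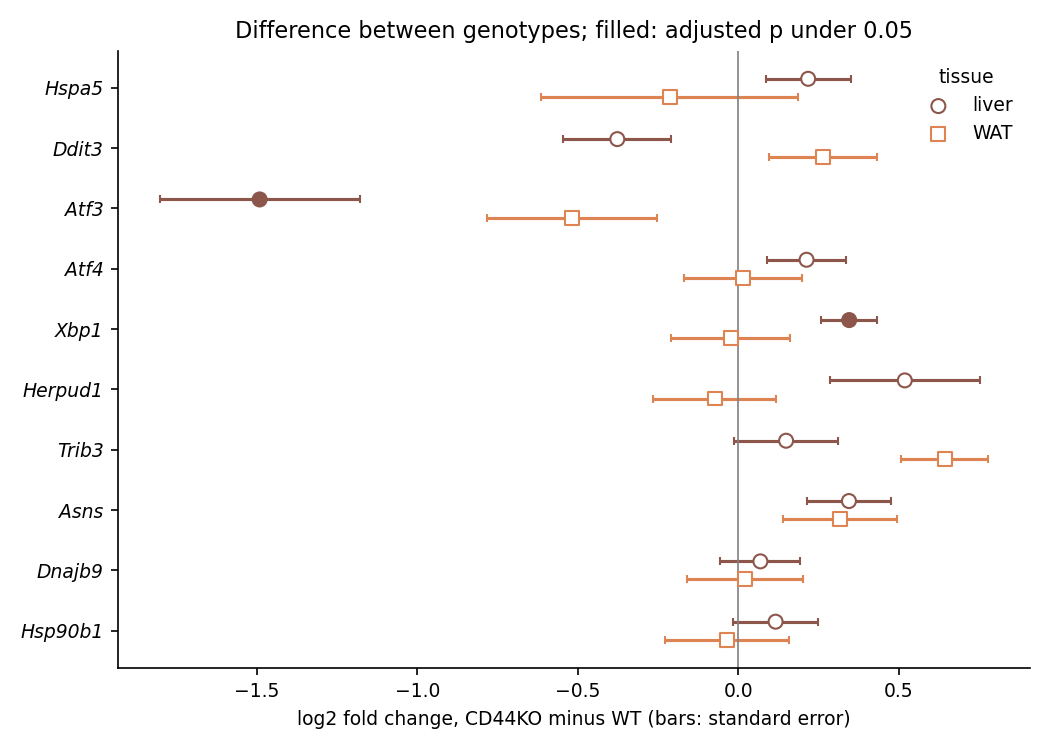
Log2 fold change of CD44KO(HFD) over WT(HFD) with its standard error for the 10 members in liver and in WAT, 5 arrays per group. In liver Atf3 at -1.49 and Xbp1 at 0.34 passed the limma test, and in WAT no member did.

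Markers of some cell types moved with genotype in the same livers, where 5.75% of all probes were called lower and 7.85% higher. In the lists of B and plasma cells and of neutrophils 0 of 8 and 0 of 5 markers were called, but their median log2 fold changes were 0.03 and -0.96. The neutrophil markers had a summed signal of 2.67 to 6.09 times the 75th percentile in WT(HFD) and 0.907 to 3.25 in CD44KO(HFD) liver. Of the stellate cell and fibroblast markers 6 of 10 tested were called lower in CD44KO(HFD) liver, with a summed signal of 106 to 164 times the 75th percentile in WT(HFD) and 69.8 to 105 in CD44KO(HFD). Of the T cell markers 6 of 9 were called lower, with sums of 3.12 to 4.9 and 2.46 to 3.23, and of the macrophage markers 2 of 9 were called lower, with sums of 48.1 to 111 and 41.5 to 121. Of the adipocyte list 2 of 6 tested were called lower, with sums of 92.5 to 120 and 16.4 to 82. Its hormone genes Lep and Adipoq were well above background on 0 and on 1 of 5 arrays of each genotype. The brightest gene of this list in liver was Cidec, with a mean log2 signal of 6.20 in WT(HFD) and 4.08 in CD44KO(HFD). The sum of the list in liver can therefore not be taken as a measure of adipocytes. The hepatocyte markers, 9 tested, had sums of 2230 to 3060 in WT(HFD) and 2890 to 3430 in CD44KO(HFD), with 1 called as higher. CD44KO(HFD) liver replicate 3, which had the highest Atf3 of its group, also had the highest sums of the adipocyte list (82) and of the stellate list (105) in that group. The macrophage and T cell sums of the group were highest on replicate 5, at 121 and 3.23, against 83.4 and 3.19 on replicate 3. The part of these cell types in the Atf3 and Xbp1 differences was not tested, and fewer cells of a type cannot be told apart from less RNA per cell in whole tissue.

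In WAT the members gave no call. Over all 27652 probes tested in WAT 11 or 0.0398% were called, 0.0289% as lower and 0.0108% as higher, while 4111 had an unadjusted p under 0.05. The median standard error over all probes was 0.25 on the log2 scale in WAT and 0.12 in liver. The estimates of the members were 5 higher and 5 lower with a median of -0.01, against -0.06 over all probes. Quantile normalization moved the median over all WAT probes from -0.06 to 0.10 and that of the members to -0.14, with 3 of 10 estimates higher.

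Trib3 was the member with the clearest separation in WAT (probe at chr2:152078476-152078535, build mm7). WT(HFD) WAT replicates 1 to 5 read 0.05, -0.10, 0.21, 0.16 and 0.25. CD44KO(HFD) WAT replicates 1 to 5 read 0.81, 0.63, 1.02, 0.65 and 0.67. The lowest CD44KO(HFD) array was above the highest WT(HFD) array, as 1 of 10 members against 6.14% of all probes without overlap. The log2 fold change was 0.64 (SE 0.14), or 1.56-fold, with 0.54 and 0.90 on the slides that held both genotypes. The exact permutation p was 0.0079, the smallest possible, but the limma adjusted p was 0.165 and the difference did not pass. The other probe of Trib3 gave 0.23 (limma adjusted p = 0.556), with overlapping groups. In a fit of all 20 arrays together the limma adjusted p of the brightest probe was 0.0216.

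Atf3 was brighter in WAT than in liver. WT(HFD) WAT replicates 1 to 5 read 4.09, 4.31, 4.43, 4.38 and 3.08. CD44KO(HFD) WAT replicates 1 to 5 read 3.12, 3.55, 3.69, 3.63 and 3.70. All CD44KO(HFD) arrays lay below the WT(HFD) mean of 4.06, and WT(HFD) replicate 5 was the lowest array of both groups. The log2 fold change of -0.52 (SE 0.27) did not pass (limma adjusted p = 0.386, exact permutation p = 0.10). Asns ranged from 2.90 to 3.25 in WT(HFD) WAT and from 2.91 to 3.74 in CD44KO(HFD) WAT, a log2 fold change of 0.32 (SE 0.18, limma adjusted p = 0.418). Ddit3 ranged from 0.03 to 0.47 in WT(HFD) WAT and from 0.19 to 0.79 in CD44KO(HFD) WAT, a log2 fold change of 0.26 (SE 0.17, limma adjusted p = 0.469).

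Hspa5 in WAT turned on single spots. It read 5.30, 5.54, 5.30 and 5.25 on WT(HFD) WAT replicates 1, 2, 3 and 5, while the spot of replicate 4 was marked as an outlier by the scanner software and dropped from the fit. It read 5.52, 5.51, 5.52, 5.51 and 3.61 on CD44KO(HFD) WAT replicates 1 to 5. The first 4 CD44KO(HFD) arrays lay together and replicate 5 far below them. On that array 10 pixels of the spot were left out as low and 56 used, against 0 left out and 63 to 67 used on all other arrays. The log2 fold change was -0.21 (SE 0.40, limma adjusted p = 0.795) with all usable spots and 0.17 (limma adjusted p = 0.632) without CD44KO(HFD) replicate 5.

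Xbp1, Atf4, Herpud1, Dnajb9 and Hsp90b1 had log2 fold changes between -0.07 and 0.02 in WAT, with limma adjusted p-values from 0.855 to 0.974. Among them the other probe of Hsp90b1 behaved differently from the brightest. It read 4.61 ± 0.22 in WT(HFD) and 3.85 ± 0.53 in CD44KO(HFD) WAT (SD, n = 5 each), without overlap (as 6.14% of all WAT probes). Its log2 fold change of -0.75 (SE 0.25) had a limma adjusted p of 0.237 and an exact permutation p of 0.0079, against -0.03 by the brightest probe, so that the probes of this gene disagreed.

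The genotype effects in the tissues were compared by the interaction term of a limma fit over all 20 arrays. This fit took all arrays as independent, and whether liver and WAT arrays came from the same mice was not checked. Of 28988 probes 334 or 1.15% differed between the tissues, and 0 of the 10 members did. The largest differences, WAT effect minus liver effect on the log2 scale, were 0.97 for Atf3 (SE 0.43, limma adjusted p = 0.275), 0.64 for Ddit3 (SE 0.24, limma adjusted p = 0.193) and -0.59 for Herpud1 (SE 0.31, limma adjusted p = 0.365). That of Trib3 was 0.49 (SE 0.21, limma adjusted p = 0.26) and that of Xbp1 -0.37 (SE 0.20, limma adjusted p = 0.383). Thus the call of Atf3 and Xbp1 in liver and its lack in WAT was not shown to be a difference between the tissues.

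The level of the same probe was set side by side for the tissues. Relative to the 75th percentile of each array, WT(HFD) WAT was above WT(HFD) liver by 4.51 for Asns and by 3.79 for Atf3 on the log2 scale. Herpud1 was lower in WAT, at a difference of -3.01, as were Trib3 at -1.50, Hspa5 at -1.20, Hsp90b1 at -1.02 and Atf4 at -0.96. For these 7 genes no liver array overlapped a WAT array. Ddit3, Xbp1 and Dnajb9 overlapped, with differences of -0.12, -0.25 and -0.25. These tissue differences are given without a test because of the separate slides.

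Further genes of the same pathways were read from 6 lists of non-members. In liver 17 of 23 genes of ER-associated degradation had a higher estimate, with 4 called higher and 0 lower (17.4% called). Of 27 chaperones and folding enzymes 23 had a higher estimate, with 2 called higher and 1 lower (11.1%). Over all liver probes 61.3% had a higher estimate and 13.6% were called, and the called shares of both lists lay near that background. The degradation genes that rose were Os9 (log2 fold change 0.40, limma adjusted p = 0.0462), a lectin that hands glycoproteins to the degradation complex, March6 (0.34, adjusted p = 0.0434), a ubiquitin ligase of the ER membrane, Ufd1l (0.34, adjusted p = 0.0268), a partner of the VCP segregase, and Erlec1 (0.28, adjusted p = 0.0452), another lectin. Of the chaperones Uggt1 (0.48, limma adjusted p = 0.0487), the glucosyltransferase of folding control, and Txndc12 (0.34, adjusted p = 0.0259), a thioredoxin-like protein, rose and the prolyl isomerase Fkbp11 fell (-0.37, adjusted p = 0.0397). The median was 0.13 for the chaperones and 0.15 for degradation, against 0.08 over all probes. After normexp background correction the medians were 0.04 and 0.06 against 0.14 over all probes, and the 4 degradation genes, Uggt1 and Txndc12 no longer passed. Quantile normalization called 3 degradation genes lower and 3 higher.

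Of 19 sensors and their partners 2 were called, both lower (10.5%, against 13.6% over all probes), with a median of -0.04. Eif2ak3, the gene of PERK, read 0.17, -0.00, 0.52, 0.16 and 0.08 on WT(HFD) liver arrays 1 to 5 and -0.34, -0.55, -0.22, -0.85 and -0.51 on CD44KO(HFD) liver arrays 1 to 5. No array of the genotypes overlapped. Eif2ak3 fell by 0.68 on the log2 scale (SE 0.13, limma adjusted p = 0.0168), or 1.60-fold. Eif2ak2, the gene of the RNA-activated kinase PKR, fell by 0.42 (SE 0.07, limma adjusted p = 0.0123), also without overlap. Over all liver probes 11.7% were without overlap, near the share of these 2 among the 19. After normexp background correction the adjusted p was 0.0568 for Eif2ak3 and 0.187 for Eif2ak2.

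Of 41 genes of the eIF2alpha kinase branch and amino acid supply 5 were called lower and 2 higher in liver (17.1%), with 20 higher estimates and a median of -0.00, where 13.6% of all probes were called. The lower genes were Nupr1, Pck2, Ddit4 and Gpt2, and the count of 5 also holds Mthfd2, from which nothing is read. Nupr1, a small stress-induced nuclear protein, read 1.07, 0.82, 0.72, 0.65 and 0.60 in WT(HFD) and -0.19, -0.60, 0.61, -0.34 and -0.01 in CD44KO(HFD) liver, where replicate 3 was again the highest of its group and alone reached the WT(HFD) range. Nupr1 fell by 0.88 (SE 0.20, limma adjusted p = 0.0237), or 1.84-fold. Mthfd2, a mitochondrial enzyme of folate metabolism, cleared the background limit on 4 of 5 WT(HFD) liver arrays and on 0 of 5 from CD44KO(HFD) mice. Mthfd2 entered the test through its WT(HFD) arrays alone, so nothing is read from its call, and its estimate was 0.11 after normexp background correction. Pck2, the mitochondrial form of PEPCK, fell by 0.58 (limma adjusted p = 0.0381), Ddit4, an inhibitor of mTORC1, by 0.55 (adjusted p = 0.0481) and Gpt2, a mitochondrial alanine transaminase, by 0.50 (adjusted p = 0.0269). Vldlr, a lipoprotein receptor, rose by 0.67 (limma adjusted p = 0.0476), and so did Shmt2, a serine hydroxymethyltransferase named after its value was seen, by 0.42 (adjusted p = 0.0392).

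Immediate early genes, which many stimuli induce along with Atf3, had 4 of 23 called lower and 1 higher in liver (21.7%), with a median of -0.38. Over all liver probes 13.6% were called, 5.75% as lower and 7.85% as higher, and the median was 0.08. Egr2 fell by 1.92 (limma adjusted p = 0.0237), Ier3 by 1.23 (adjusted p = 0.0450), Klf6 by 1.05 (adjusted p = 0.0179) and Btg2 by 1.02 (adjusted p = 0.0115), whereas Dusp1, a phosphatase of MAP kinases, rose by 0.83 (adjusted p = 0.0472). Klf6 read 2.53, 2.57, 2.29, 2.07 and 2.21 in WT(HFD) and 1.11, 0.88, 2.06, 0.98 and 1.41 in CD44KO(HFD) liver, again with replicate 3 as the highest CD44KO(HFD) array. Egr2 showed the same order, with -1.73 on CD44KO(HFD) replicate 3 and -4.29 to -3.16 on the others, against -1.95 to -0.94 in WT(HFD), and after normexp background correction its log2 fold change was -0.93 (limma adjusted p = 0.142). Ier3 was at -0.33 under that correction (limma adjusted p = 0.491) and Dusp1 at 0.74 (adjusted p = 0.189), and neither passed. Of 18 cytosolic heat shock genes 1 was called lower and 1 higher (11.1%, near the 13.6% over all liver probes). Hspb1, which encodes HSP27, fell by 1.15 (SE 0.19, limma adjusted p = 0.0103) without overlap, which was also seen for 11.7% of all liver probes. Hspa4, an HSP70 relative, rose by 0.25 (limma adjusted p = 0.0420), but was at 0.15 with normexp background correction (adjusted p = 0.469). Of the 23 genes of the 6 lists called in liver 5 passed in all 10 fits with 1 array left out: Eif2ak3, Eif2ak2, Hspb1, Klf6 and Btg2. The other 18 passed in 1 to 8 of these fits, among them Ddit4 in 1, Ier3, Pck2, Vldlr, Shmt2, Dusp1 and Hspa4 in 2 and Gpt2 in 4. After normexp background correction 16 of the 23 were no longer called, Gpt2, Vldlr and Shmt2 among them, and Ddit4, Pck2, Nupr1, Fkbp11, Klf6, Btg2 and Hspb1 were. Over all liver probes the number called fell from 3358 to 641 with that correction. How many of all called probes passed in every fit with an array left out was not counted.

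In WAT no gene of the 6 lists was called. The genes of the eIF2alpha kinase branch and amino acid supply had a higher estimate in CD44KO(HFD) WAT for 35 of 43, against 44.7% of all probes, with a median of 0.27 (0.17 to 0.32 over the scalings tried). Over all WAT probes the median was -0.06. The list's 0.17 came from quantile normalization, where the median over all probes was 0.10. With that scaling 16312 of 27652 probes and 34 of 43 list genes had a higher estimate. Of these 43 genes 13 had an unadjusted p under 0.05, against 14.9% of all probes, and the lowest limma adjusted p was 0.168. Fgf21, the stress-induced hormone of liver and fat, had the largest estimate at 0.85 (limma adjusted p = 0.224) and Phgdh, the first enzyme of serine synthesis, the next at 0.81 (adjusted p = 0.262). In 7 of the 43 genes the genotypes did not overlap, against 6.14% of all probes, each higher in CD44KO(HFD): Psat1, Eif4ebp1, Cth, Slc38a2, Fgf21, Eprs and Lars, of which those other than Fgf21 were named after their values were seen. The chaperones had a median of -0.05 with 12 of 27 estimates higher, where Sdf2l1 (-0.88, limma adjusted p = 0.198) and Uggt1 (-0.45, adjusted p = 0.35) were the largest in size. The largest in the other lists were Mbtps2 (-0.87, limma adjusted p = 0.578) and Atf6b (-0.52, adjusted p = 0.279) among sensors, Derl3 (-1.35, adjusted p = 0.326) and Edem2 (-0.61, adjusted p = 0.323) in degradation, Cryab (0.92, adjusted p = 0.208) and Hsf2 (-0.90, adjusted p = 0.497) among heat shock genes, and Klf2 (-0.59, adjusted p = 0.731) and Btg2 (0.55, adjusted p = 0.369) among immediate early genes. Without WT(HFD) WAT replicate 1, which stood apart, Mbtps2 was at -0.07 and Hsf2 at -0.23, and without CD44KO(HFD) WAT replicate 3 Klf2 was at 0.02. The medians of the sensor, degradation and heat shock lists were 0.15, 0.15 and 0.11 and fell below 0 after quantile normalization. Adipocyte markers summed to 534 to 920 in WT(HFD) and 780 to 1350 in CD44KO(HFD) WAT, and macrophage markers to 309 to 427 and 308 to 407. Other lists shifted more, with a median log2 fold change of -2.12 for mesothelium (sums of 3.82 to 19.3 and 1.6 to 5.3), -1.06 for B and plasma cells, -1.04 for T cells and 0.87 for hepatocytes, and 0 markers were called in any list. Epididymis markers summed to 2.98 on WT(HFD) WAT replicate 1 and to at most 0.462 on the other WAT arrays. Their part in these values was not tested.

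**Figure D4:**
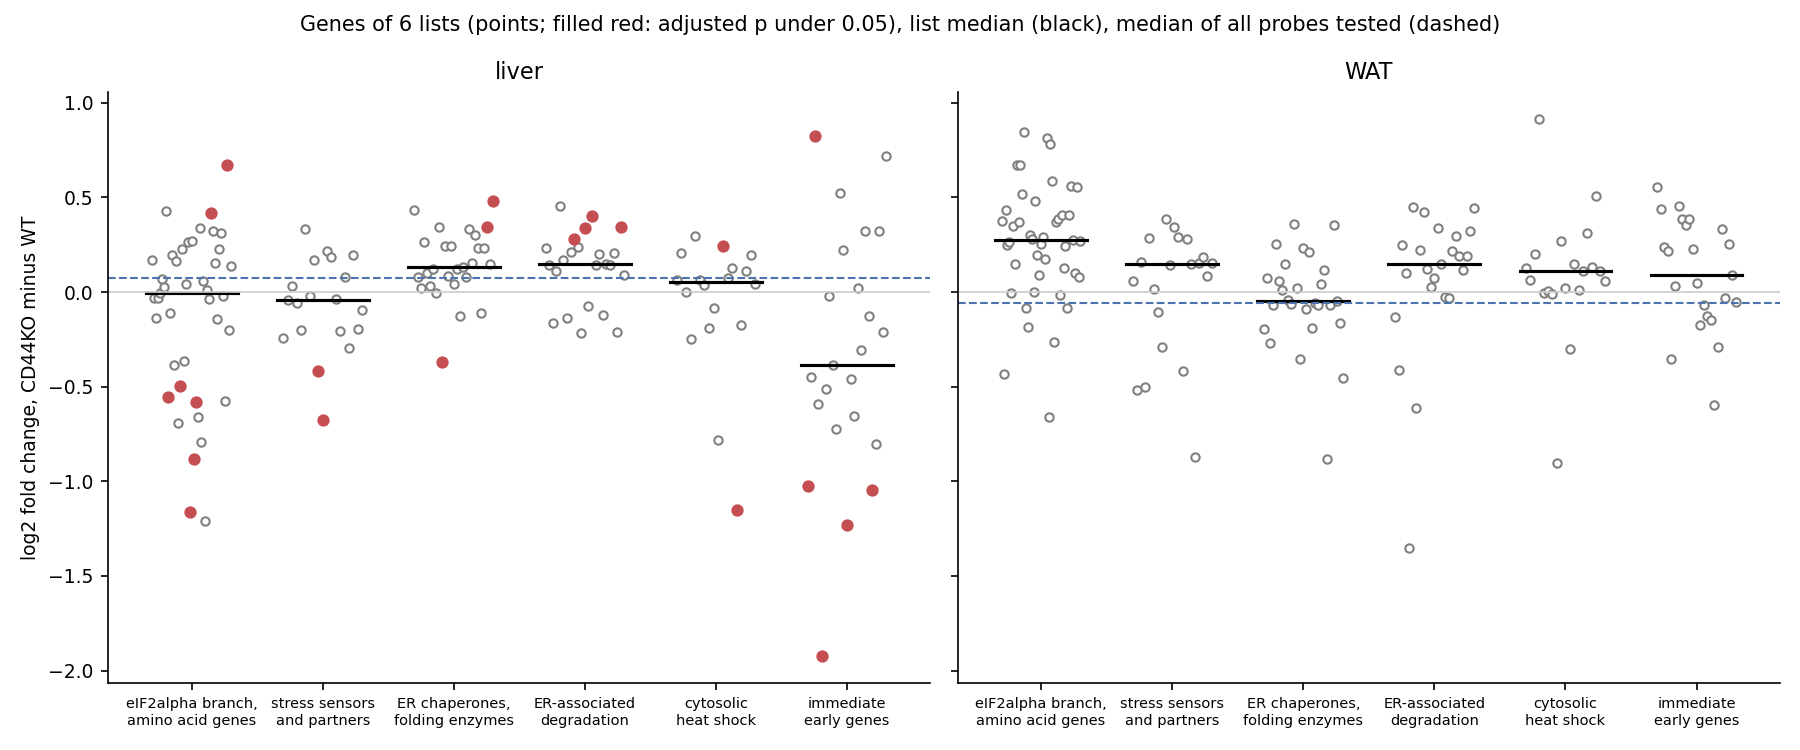
Log2 fold changes of CD44KO(HFD) over WT(HFD) for the tested genes of the 6 pathway lists in liver and in WAT, with a point for a gene and a line for the list's median. The list of the eIF2alpha kinase branch and amino acid genes has a median of -0.00 in liver and 0.27 in WAT.

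The genotype effect differed between the tissues for 6 of 155 tested list genes, where 334 of 28988 probes or 1.15% differed. Each of the 6 had the WAT effect above the liver effect, and the directions over all probes were not counted. All 6 were also among the genes called lower in liver, so their shared direction is not a separate result. The 6 genes were Hspb1 (difference 1.46, limma adjusted p = 0.0084), Eif2ak3 (0.82, adjusted p = 0.0307), Btg2 (1.58, adjusted p = 0.0316), Nupr1 (1.17, adjusted p = 0.0420), Klf6 (1.38, adjusted p = 0.0460) and Mthfd2 (1.25, adjusted p = 0.0460). Mthfd2 rests on CD44KO(HFD) liver signals near background, so nothing is read from its difference.

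The genes whose array-to-array deviations within groups were most like those of Asns were Ap2b1 (Pearson r = 0.82 over 20 arrays), NAP037463-1 (0.78), Gmfb (0.78), Vrk1 (0.78) and Atp6v0a2 (0.77), among 19363 probes well above background on every array. For Hspa5 over 19 arrays they were Stk3 (0.93), Timm13 (0.89), Rspry1 (0.88), D230010M03Rik (0.88) and Mrps23 (0.83). Without CD44KO(HFD) WAT replicate 5, the array with the low Hspa5 spot, r over 18 arrays was 0.45 for Stk3, 0.24 for Timm13, 0.30 for Rspry1, 0.58 for D230010M03Rik and -0.39 for Mrps23. The points share arrays and their scaling, and the values are a description.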

How the data were processed

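Total RNA from liver and WAT was labelled with Cy3 and hybridised to 1-colour mouse arrays, 20 in all. The authors deposited the scanner's spot intensities for each array: the processed signal is an intensity from which a fitted surface over dim spots was subtracted, with dim spots replaced by surrogate values and no scaling between arrays. Each array had 45018 spots, of which 43379 were not controls, for 41174 probes. Probe positions are on build mm7, per the file headers, and symbols were updated by accession for 22951 probes through the RefSeq table. The deposited series table held the same values.

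Signals were scaled to the array's 75th percentile, taken to log2 and averaged over spots of a probe without outlier spots. Probes well above background (13 SD) on at least 3 of 5 arrays of a genotype were tested within each tissue with limma 3.58.1 (lmFit and eBayes, R 4.3.3), Benjamini-Hochberg adjustment and a threshold of 0.05, and the tissues were compared by an interaction term. Single genes were also tested by a two-sided exact permutation of the 10 arrays. The number of arrays limits the precision, since arrays have no read depth. The tests were checked on simulated data. Alternatives were normexp background correction (offset 50), quantile normalization, centring on detected probes, no filter, and only probes well above background on all arrays. Others were slide or replicate as a block, array weights, a trended robust fit, a fit of all 20 arrays and the mean of all probes of a gene. The deposited series table was also fitted, arrays were left out in turn and, chosen after seeing the data, outlier spots were kept.

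The members, the pathway and marker lists and the tests were chosen with earlier results of these data known. The text names all 10 members, Cd44 and, for each list and tissue, the called genes up to the 6 largest, or the 2 largest where none was called. Marker lists for B and plasma cells (0 of 8 called in liver), neutrophils (0 of 5), exocrine pancreas (1 of 9, higher), epididymis (0 of 4) and mesothelium (2 of 6, lower) were also read, with 0 called in WAT in each.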

Additional observations from a re-analysis of the deposited data

Results flagged for a closer look

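A closer look was called for where 1 array stood far from the other 4 of its group (3 others for Hspa5 in WT(HFD) WAT) by Dixon's ratio, which happened in 5 of 44 groups tested, while chance gives about 1 in 20. Hspa5 was at 3.61 on CD44KO(HFD) WAT replicate 5, against 5.51 to 5.52 on the other arrays of the group, and at 5.54 on WT(HFD) WAT replicate 2, against 5.25 to 5.30. Atf3 was at 3.08 on WT(HFD) WAT replicate 5, against 4.09 to 4.43, and at 3.12 on CD44KO(HFD) WAT replicate 1, against 3.55 to 3.70. Asns was at -0.83 on CD44KO(HFD) liver replicate 2, against -1.23 to -1.14. The cause of these values was not tested.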

How the results depend on the processing

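In liver Atf3 was lower past the threshold under all 14 alternatives (log2 fold change -1.51 to -1.28) and in 9 of 10 fits with an array left out, all but that without WT(HFD) replicate 2. Xbp1 passed in 9 of 14 and in 3 of 10. The 14 include the deposited series table, whose values were the same, and the mean of all probes, where both genes have 1 probe. Neither setting could give another estimate for Atf3 or Xbp1. Trib3 in WAT passed in 2 of 14, the fit of all 20 arrays and array weights. Main counts, lower and higher, were 1 and 1 members, 13 and 10 pathway genes and 1420 and 1938 probes in liver, and 0 members, 0 pathway genes and 8 and 3 probes in WAT. The cause of the shifts below was not tested, except that fewer arrays or more probes enter some fits.

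With normexp background correction there were 0 members higher, 7 pathway genes lower and 0 higher, and 425 and 216 probes in liver, and 29 and 6 probes in WAT. Quantile normalization gave 0 members higher and 5 pathway genes higher in liver and a median of -0.145 for the members in WAT, and centring gave 4 pathway genes higher. Without a filter there were 0 members higher, 6 and 0 pathway genes and 578 and 450 probes in liver, and 3 and 0 probes in WAT. The slide as a block gave 4 and 0 probes in WAT, and as a random block 18 pathway genes higher in liver. Array weights gave 20 pathway genes higher in liver; in WAT, where the weights did not converge (0.0791 for WT(HFD) replicate 1 and 28.5 for CD44KO(HFD) replicate 5), they gave 2 and 2 members, 10 and 11 pathway genes, 2638 and 2654 probes, a members' median of -0.154 and 3 members (Hspa5, Xbp1, Hsp90b1) with a lower WAT than liver effect. A trended robust fit gave 18 pathway genes higher in liver and 66 and 77 probes in WAT. The fit of all 20 arrays gave 0 members higher, 7 and 0 pathway genes and 499 and 139 probes in liver, and 1 member (Trib3) and 6 pathway genes higher with 611 and 1036 probes in WAT.

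Same-numbered arrays of a tissue did not all deviate together (r of -0.0381 to 0.416 in liver and -0.213 to 0.0914 in WAT). So few values cannot decide whether the numbers pair the samples, and the main fits took the arrays as unpaired. With the replicate number as a block 0 members were higher, 7 and 2 pathway genes and 682 and 647 probes differed in liver, and 3 and 0 probes in WAT.

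With an array left out, members lower in liver were 0 to 1 and higher 0 to 2, pathway genes 6 to 18 lower and 0 to 17 higher, and probes 487 to 1895 lower and 437 to 2800 higher, fewest without WT(HFD) replicate 2 and most without CD44KO(HFD) replicate 3. Members' medians were 0.12 to 0.23 in liver and -0.11 to 0.04 in WAT. In WAT 0 members and 0 pathway genes passed, with 3 to 19 probes lower and 0 to 18 higher, most without WT(HFD) replicate 1.

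Signs of some log2 fold changes turned, none of them called other than Mthfd2. Not all of these lay near 0 in the main fit, where Klf2 in WAT was at -0.59 and Hspa5 in WAT at -0.21. With normexp Mthfd2 in liver was 0.11, Dnajb9 -0.021 in liver, -0.019 in WAT and 0.0017 for the difference between tissues, and Asns 0.057 for that difference. With quantile normalization Hsp90b1 in liver was -0.021, Atf4 in WAT -0.10 and Dnajb9 in WAT -0.095. With centring Xbp1 and Hsp90b1 in WAT were 0.025 and 0.014. With the slide block Atf4, Dnajb9 and Hsp90b1 in WAT were -0.047, -0.18 and 0.11. With array weights Atf4 and Dnajb9 in WAT were -0.13 and -0.039. By the mean of all probes Trib3 and Hsp90b1 in liver were -0.0175 and -0.035 and Dnajb9 in WAT -0.10. With outlier spots kept Hspa5 in WAT was 0.12. With an array left out the ranges were -0.012 to 0.13 for Dnajb9 in liver, and in WAT -0.31 to 0.17 for Hspa5, -0.094 to 0.11 for Atf4, -0.18 to 0.039 for Xbp1, -0.23 to 0.013 for Herpud1, -0.057 to 0.13 for Dnajb9, -0.16 to 0.053 for Hsp90b1 and -1.15 to 0.016 for Klf2. For the difference between tissues they were -0.12 to 0.0875 for Asns and -0.125 to 0.0575 for Dnajb9.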
